A study of Homo sapiens with 6 samples.

Results

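The Wnt pathway was examined in MDA-MB-453 cells through the genes of its ligands, receptors, antagonists and inner signalling steps. The members were chosen by symbol from the table of read counts. They were the WNT, FZD, SFRP, DKK and LGR4 to LGR6 families, LRP5, LRP6, AXIN1, AXIN2, RNF43, ZNRF3, TCF7, TCF7L1, TCF7L2, LEF1, CTNNB1, APC, NKD1, NKD2, NOTUM, PORCN and WIF1. Of the 36517 genes of the table, 55 were members. DKK2 and DKK4 had no row and were not analysed here.

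MDA-MB-453 is a human breast cancer line. The control group (n = 3) carried a lentivirus with the negative control hairpin shNC, and the shtRF group (n = 3) carried a lentivirus with a hairpin against tRF-1-Ser, a small RNA derived from a serine tRNA precursor. Both groups were therefore infected cells of the same line, grown in the same serum-containing medium, and messenger RNA of all 6 libraries was taken at day 3. The labels do not say whether the 3 replicates of a group were separate infections. The p-values weigh the difference between groups against a spread between libraries, estimated in part over all genes. That spread may be partly technical. The hairpin's target is a small RNA that these libraries did not measure.

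In the Wnt pathway, a secreted and lipid-modified ligand joins a Frizzled receptor and an LRP co-receptor at the cell surface. Without ligand, a cytoplasmic complex built on axin and APC marks beta-catenin for degradation, and with ligand this complex is held back, so that beta-catenin enters the nucleus and works with TCF and LEF factors. The ubiquitin ligases RNF43 and ZNRF3 remove Frizzled receptors from the surface, R-spondins acting through LGR receptors counter that removal, and several genes of the pathway's own brakes are known targets of beta-catenin. The transcripts counted here do not measure protein, receptor at the surface or pathway activity.

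Levels are given as CPM, counts scaled to a common library total with edgeR's TMM factors, for comparison of one gene between libraries. Levels of different genes are compared only in RPKM, counts per kilobase of exon scaled to the library total alone. A gene was called expressed where all 3 libraries of a group reached 1 RPKM, and higher or lower where edgeR's quasi-likelihood test gave an adjusted p under 0.05 over all 19628 genes tested. Values after ± are SDs over 3 libraries, or the standard error (SE) where a log2 fold change is given.

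The cells expressed a receptor side and an inner signalling side of the pathway, with few ligands and almost no secreted antagonists. Of the 55 members, 13 were expressed, 21 had enough counts to be tested but lay below that level, and 21 had too few counts to be tested. The expressed members were FZD1, FZD2, FZD4 and FZD6, LRP5 and LRP6, RNF43, APC, AXIN1 and NKD1, CTNNB1, TCF7L2 and 1 ligand gene, WNT7B. Of the 21 members that were not tested, 13 had at most 3 counts in every library, which is within the limit that a count of 0 allows, and the highest single count among the other untested members was 16. Each of the 13 members with at most 3 counts still had at least 2 counts in some library. At this depth they cannot be told from background, which is not the same as being absent. The other untested members had more counts, but too few to test.

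**Figure D1:**
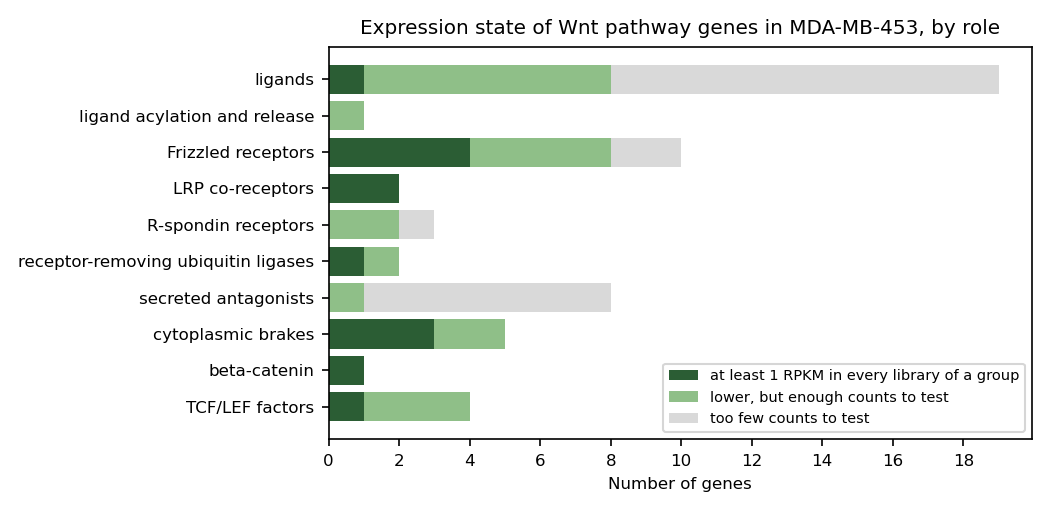
Number of Wnt pathway genes in each expression state (x axis, genes) by role in the pathway (y axis). Of 19 ligand genes 1 reached 1 RPKM in every library of a group and 11 had too few counts to test, whereas both LRP co-receptor genes reached it.

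Tests across the members found small changes in both directions. Of the 34 members tested, 8 were higher in shtRF (23.5%) and 5 were lower (14.7%), and 21 did not pass. Over all tested genes 20.6% were higher and 18.9% were lower, so both shares among the members were near the background. The median log2 fold change was -0.07 over the 34 members and -0.0025 over all tested genes. The higher members were NKD1, RNF43, FZD6, WNT7B, FZD8, AXIN2, WNT9A and LEF1, and the lower ones were CTNNB1, LRP5, FZD1, LGR4 and WNT3. No member was higher by over 2-fold, against a background of 2.66%, and 1 member, WNT3, was lower by over 2-fold, against 3.11%. The 3 libraries of one group lay wholly above those of the other in CPM for 18 of the 34 members (52.9%), beside 48.7% of all tested genes, and these included all 13 members that passed the test.

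**Figure D2:**
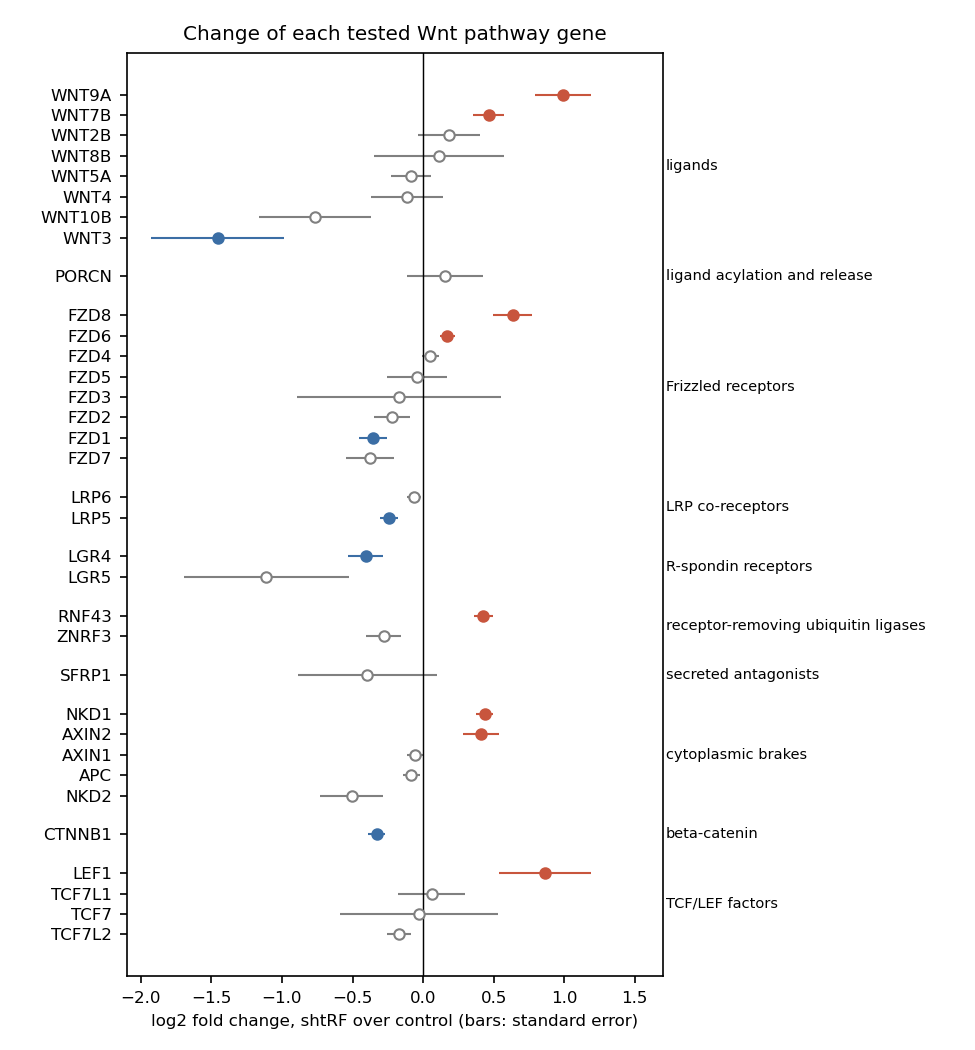
Log2 fold change of shtRF over control for the 34 tested members (x axis), grouped by role (y axis), with bars of 1 standard error. Filled red points were higher and filled blue points lower at an adjusted p under 0.05, and open grey points did not pass. Estimates ran from -1.46 for WNT3 to 0.99 for WNT9A, and roles such as ligands and Frizzled receptors held points on both sides of 0.

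Levels per length put the receptor FZD6 first. In control cells FZD6 stood at 21.6 ± 0.655 RPKM (SD, n = 3), with 21.2 RPKM in its lowest library, against 10.3 RPKM in the highest library of CTNNB1, which came next. CTNNB1 (9.82 RPKM) and LRP6 (9.40 RPKM) overlapped in their control libraries. AXIN1 (7.17 RPKM) and NKD1 (6.36 RPKM) overlapped likewise. LRP5 (5.30 RPKM), APC (5.19 RPKM) and FZD4 (4.78 RPKM) followed, with neighbours overlapping, and a step separated them from RNF43 at 2.53 RPKM. FZD2 (2.33 RPKM) and TCF7L2 (2.09 RPKM) overlapped, as did FZD1 (1.53 RPKM) and WNT7B (1.39 RPKM), the last of the expressed members. The summed RPKM of the 55 members was 86.8 in control and 85.6 in shtRF.

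**Figure D3:**
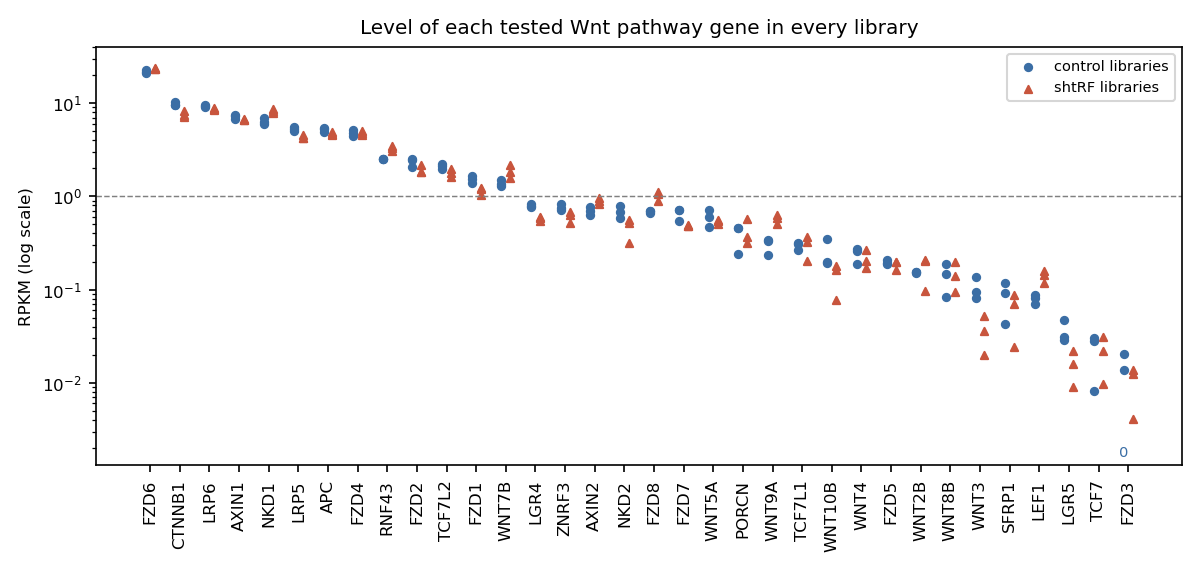
RPKM of the 34 tested members in each control library (blue circles) and each shtRF library (red triangles), on a log scale, ordered by the control mean. The dashed line marks 1 RPKM, and a 0 printed at the bottom marks a library without counts. FZD6 lay above every other member in all 6 libraries.

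Among the ligand genes, WNT7B and WNT9A were higher in shtRF and WNT3 was lower. Together the 19 ligand genes summed to 3.26 RPKM in control and 3.72 RPKM in shtRF, less than CTNNB1 alone. Of the 8 ligand genes tested, 2 were higher (25.0%), 1 was lower (12.5%) and 5 did not pass, beside 20.6% and 18.9% over all tested genes.

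WNT7B (chromosome 22, 45920362 to 45977129, minus strand, on GRCh38 as for all positions of counted genes here) encodes a ligand of epithelial tissues. Its control libraries held 7.48, 6.76 and 6.42 CPM and its shtRF libraries 10.9, 8.18 and 9.46 CPM. All shtRF libraries were higher than all control libraries, and the shtRF libraries were the more scattered. The log2 fold change was 0.47 ± 0.11 (SE, adjusted p = 0.00156). On the log2(RPKM + 1) and log2(RPKM + 0.1) scales, limma-trend gave adjusted p-values of 0.0702 and 0.0670. WNT7B made up 42.4% to 42.9% of the summed ligand RPKM in the control libraries and 45.2% to 53.0% in the shtRF libraries.

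WNT9A (chromosome 1, 227918656 to 227947898, minus strand) had the largest rise of any member. Counts were 86, 97 and 73 in control and 164, 177 and 128 in shtRF, or 1.17 ± 0.225 and 2.32 ± 0.257 CPM (SD, n = 3). The groups were well apart, and the level stayed below 1 RPKM in both, at 0.301 and 0.575 RPKM. The fold was 1.99 and the log2 fold change 0.99 ± 0.20 (SE, adjusted p = 3.58e-04). WNT9A made up 9.21% of the summed ligand RPKM in control and 15.5% in shtRF, as group means.

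WNT3 (chromosome 17, 46762506 to 46833154, minus strand), a ligand gene of the classic beta-catenin branch, went the other way at a level close to the limit of the test. Control libraries had 38, 26 and 32 counts, and shtRF libraries 6, 16 and 10. No shtRF library reached the lowest control library, with a log2 fold change of -1.46 ± 0.47 (SE) and an adjusted p of 0.0176. The call was lost without control replicate 1 (log2 fold change -1.22, adjusted p = 0.101), without shtRF replicate 1 (-1.16, adjusted p = 0.0960) and without shtRF replicate 3 (-1.46, adjusted p = 0.0576).

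The other 5 tested ligand genes did not pass. WNT5A, a ligand best known for signalling without beta-catenin, had 4.41, 5.21 and 3.46 CPM in control and 4.10, 3.94 and 4.25 CPM in shtRF. Its groups overlapped, with a log2 fold change of -0.09 ± 0.14 (SE) and an adjusted p of 0.671. WNT10B had 33, 37 and 73 counts in control and 14, 34 and 27 in shtRF, and its groups overlapped as well (log2 fold change -0.77 ± 0.40, SE, adjusted p = 0.138). WNT2B, WNT4 and WNT8B had adjusted p-values of 0.555, 0.767 and 0.874. WNT2B shares 21.2% of its exonic bases with ST7L on the opposite strand, a gene that rose by 0.36 on the log2 scale (adjusted p = 4.22e-04), and the reads of such shared bases may not have been told apart.

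The 11 ligand genes that were not tested were WNT1, WNT2, WNT3A, WNT5B, WNT6, WNT7A, WNT8A, WNT9B, WNT10A, WNT11 and WNT16. Their highest counts were the 16 of WNT5B in control replicate 3. Several sit beside a ligand gene that had enough counts to test. The counted exons of WNT3 and WNT9B lie on opposite strands of chromosome 17 with 46 bases between their outer bounds. Their RefSeq promoter windows lie further apart, at 46818643 to 46818942 for WNT3 and 46851333 to 46851632 for WNT9B. WNT9B had 2 counts in 1 library and none elsewhere. WNT9A and WNT3A are 59152 bases apart on chromosome 1, where WNT3A had at most 2 counts in a library, and WNT10B and WNT1 are 6689 bases apart on chromosome 12, where WNT1 had 2 counts in 1 library. In these 3 neighbouring pairs 1 partner was detected well enough to be tested and the other was not, and in the pair of WNT6 and WNT10A on chromosome 2 neither was.

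The genes examined for making and exporting the ligands were PORCN, which was tested but below the expressed level, and WLS, which was expressed. PORCN encodes the enzyme that attaches the lipid to Wnt proteins. It had 0.707, 1.34 and 1.36 CPM in control and 1.69, 1.15 and 0.967 CPM in shtRF, with overlapping groups and a log2 fold change of 0.16 ± 0.27 (SE) and an adjusted p of 0.692. WLS, which carries finished ligands to the surface and was taken from a list of further pathway genes, was lower in shtRF. It went from 5.29 ± 0.572 to 3.58 ± 0.399 CPM (SD, n = 3), with every shtRF library below every control library (log2 fold change -0.56 ± 0.13, SE, adjusted p = 0.00157).

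Calls among the Frizzled genes went in both directions, in a small set. Of 10 Frizzled genes 8 were tested, of which FZD6 and FZD8 were higher (25.0%), FZD1 was lower (12.5%) and 5 did not pass. Over all tested genes 20.6% were higher and 18.9% were lower, and the difference was not tested. The summed Frizzled level was 31.7, 31.8 and 32.0 RPKM in the control libraries and 33.7, 32.5 and 33.1 RPKM in the shtRF libraries. Every shtRF sum lay above every control sum, by a small margin, in RPKM without TMM factors. FZD6 made up 66.7% to 69.9% of that sum in control and 70.1% to 72.4% in shtRF. From control to shtRF the mean sum went from 31.85 to 33.07 RPKM and FZD6 alone from 21.65 to 23.5 RPKM. The other Frizzled genes together therefore did not rise.

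FZD6 (chromosome 8, 103298433 to 103332866, plus strand) encodes a receptor linked mainly to planar cell polarity. Its control libraries held 84.5, 84.8 and 89.96 CPM and its shtRF libraries 95.3, 99.4 and 97.4 CPM. The groups did not overlap, although the change was the smallest of those called, at a log2 fold change of 0.17 ± 0.05 (SE) and an adjusted p of 0.0121. The call was lost without control replicate 1 (adjusted p = 0.0640), without control replicate 2 (adjusted p = 0.0614) and without shtRF replicate 2 (adjusted p = 0.0566). BAALC-AS1, on the opposite strand, covers 3.4% of the exonic bases of FZD6 and was itself higher, from 1.39 to 2.42 CPM (adjusted p = 0.00321).

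FZD8 (chromosome 10, 35638249 to 35642278, minus strand), another receptor, rose further at a lower level. It had 2.61, 2.73 and 2.75 CPM in control and 4.21, 3.78 and 4.58 CPM in shtRF. The control libraries were close together and all shtRF libraries were higher, with a log2 fold change of 0.63 ± 0.14 (SE) and an adjusted p of 7.39e-04. Its mean level moved from 0.682 to 1.02 RPKM, so FZD8 lay at the edge of being called expressed, which it was not because not every shtRF library reached 1 RPKM.

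FZD1 (chromosome 7, 91264364 to 91271326, plus strand), a receptor of the beta-catenin branch, was lower. It held 9.46, 11.3 and 10.6 CPM in control and 8.28, 7.48 and 8.80 CPM in shtRF. All shtRF libraries lay below all control libraries, with a log2 fold change of -0.36 ± 0.10 (SE) and an adjusted p of 0.00551. FZD7, a close relative, gave 2.69, 2.06 and 2.74 CPM in control and 1.91, 1.95 and 1.90 CPM in shtRF. Its groups did not overlap but its log2 fold change of -0.38 ± 0.17 (SE) did not pass (adjusted p = 0.0843). Without control replicate 2, the lowest of the control libraries, it would have passed (adjusted p = 0.0310).

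FZD4 and FZD2 were expressed and did not pass. FZD4 had 37.0, 34.7 and 32.2 CPM in control and 36.3, 34.7 and 36.6 CPM in shtRF, with overlapping groups (log2 fold change 0.05 ± 0.06, SE, adjusted p = 0.556). It shares 18.9% of its exonic bases with PRSS23 on the opposite strand, which fell by 0.42 on the log2 scale (adjusted p = 1.91e-06). FZD2 had 5.16, 5.04 and 4.29 CPM in control and 4.50, 4.03 and 3.90 CPM in shtRF, again with overlap (log2 fold change -0.22 ± 0.13, SE, adjusted p = 0.182). FZD5 and FZD3 gave adjusted p-values of 0.899 and 0.883, and FZD9 and FZD10 had at most 2 counts in any library.

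Both LRP co-receptor genes lay lower in shtRF in every library, and 1 of them passed the test. LRP5 (chromosome 11, 68312609 to 68449275, plus strand) held 30.6, 33.1 and 32.4 CPM in control and 27.7, 26.9 and 26.7 CPM in shtRF. The groups were apart, with a log2 fold change of -0.24 ± 0.06 (SE) and an adjusted p of 0.00333. LRP6 held 93.4, 94.9 and 97.9 CPM in control and 90.9, 91.4 and 91.5 CPM in shtRF. Its groups also did not overlap, but the gap was narrow and its log2 fold change of -0.06 ± 0.05 (SE) did not pass (adjusted p = 0.352). In RPKM, LRP6 was the more abundant of the pair in both groups, at 9.40 against 5.30 in control and 8.67 against 4.32 in shtRF.

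Genes for the R-spondin branch were low. LGR4 (chromosome 11, 27365961 to 27472775, minus strand), a receptor for R-spondins, held 4.93, 4.71 and 5.21 CPM in control and 3.67, 3.96 and 3.56 CPM in shtRF. Each shtRF library was below each control library, and the log2 fold change was -0.41 ± 0.12 (SE), with an adjusted p of 0.0106. LGR5, a receptor gene known as a stem cell marker of the gut, had 16, 12 and 12 counts in control and 8, 6 and 3 in shtRF. Its groups did not overlap, but at these counts its log2 fold change of -1.11 ± 0.59 (SE) did not pass (adjusted p = 0.145). LGR6 had at most 6 counts. Of the 4 R-spondin genes, the ligands of these receptors, none had enough counts to be tested. RSPO3 had the highest count, with 2, 0 and 0 counts in control and 22, 6 and 8 in shtRF. Its groups did not overlap, as was so for 48.7% of all tested genes. At these counts, with the 22 in 1 library, its difference was not tested. The other R-spondin genes had at most 10 counts in a library.

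The ubiquitin ligase genes RNF43 and ZNRF3, which act alike on Frizzled receptors, did not move together. RNF43 (chromosome 17, 58352500 to 58417595, minus strand) held 18.5, 18.6 and 18.7 CPM in control and 25.7, 24.1 and 25.4 CPM in shtRF. The control libraries were almost equal and all shtRF libraries were clearly higher, with a log2 fold change of 0.43 ± 0.07 (SE) and an adjusted p of 2.25e-05. An antisense gene, TSPOAP1-AS1, covers 20.3% of its exonic bases and did not pass itself (log2 fold change 0.14 ± 0.12, SE, adjusted p = 0.374). ZNRF3 held 5.09, 5.69 and 4.93 CPM in control and 4.40, 3.75 and 4.80 CPM in shtRF. Its shtRF libraries all lay below its control libraries, and its log2 fold change of -0.28 ± 0.13 (SE) did not pass (adjusted p = 0.0848). The difference between the changes of these genes was not tested.

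**Figure D4:**
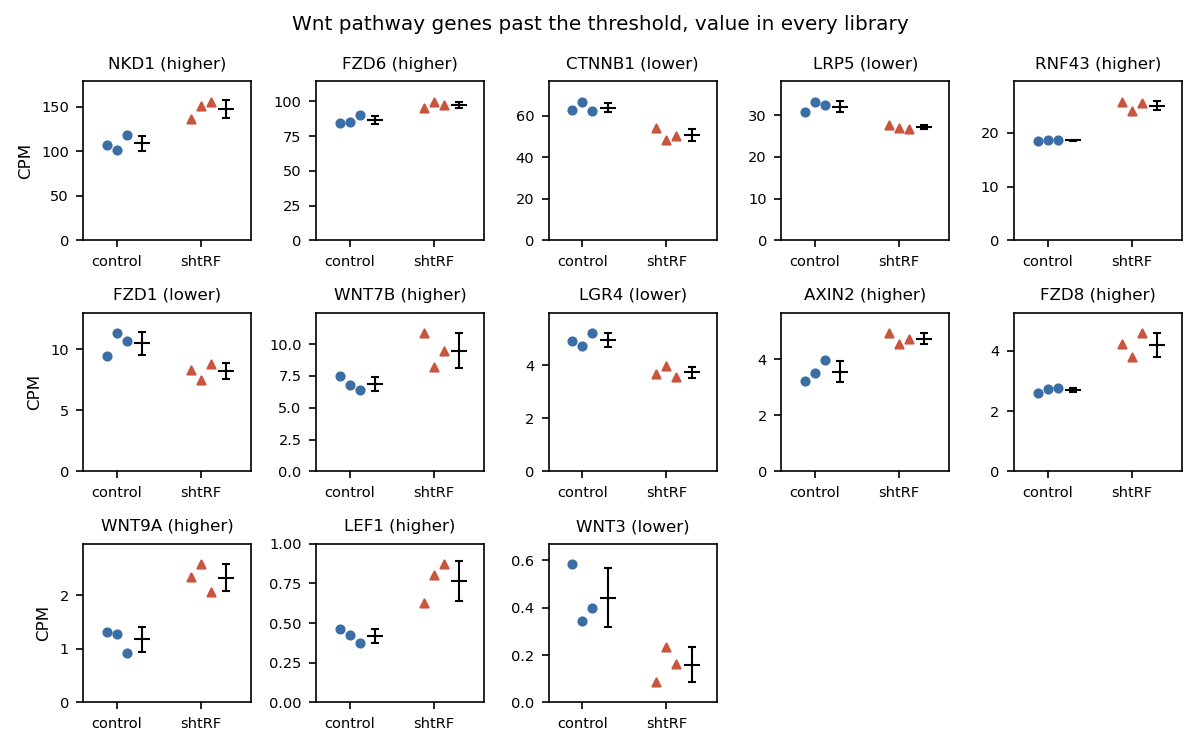
CPM in every library for the 13 members that passed the test, 1 panel each with its own y axis from 0, control libraries as blue circles and shtRF libraries as red triangles. Black marks are the mean ± SD of 3 libraries. In each panel the groups do not overlap, from NKD1 at over 100 CPM to WNT3 at under 0.6 CPM.

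Secreted antagonists, which bind ligands or block LRP co-receptors outside the cell, were nearly silent. The 8 genes of this kind summed to 0.101 RPKM in control and 0.106 RPKM in shtRF, and none was expressed. SFRP1, a decoy receptor, was the 1 gene with enough counts to test. It had 36, 32 and 16 counts in control and 8, 30 and 21 in shtRF, with overlapping groups (log2 fold change -0.40 ± 0.49, SE, adjusted p = 0.567). The untested antagonists were SFRP2, SFRP4, SFRP5, DKK1, DKK3, WIF1 and NOTUM, an enzyme that strips the lipid from Wnt proteins. DKK1 had 0, 0 and 4 counts in control and 0, 6 and 2 in shtRF, and the other untested antagonists had at most 4 counts in any library.

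Promoter windows were examined because many pathway genes are known targets of beta-catenin, whose TCF and LEF partners bind short motifs. RefSeq windows on GRCh38.p14, from 250 bases before to 50 bases after a start site, were given for 39 of the 55 members, in 50 windows. The motif searched was CTTTG followed by A or T at each of the next positions up to 7 letters in all, on both strands, with overlaps allowed. A match was present in 4 of the 50 windows (8.0%), beside 13.8% of all 35116 windows, while the median GC content was 66.0% in the member windows and 58.7% in all windows. Among the 4 higher members with a window 0 held a match, and among the 5 lower members 1 did, WNT3. Of the 13 members that did not pass, TCF7 and TCF7L2 held 1 each, in windows of a later start site. Of the members that passed the test, NKD1, AXIN2, WNT7B and FZD6 had no window examined here.

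DKK1, which had almost no counts, was the 1 member with more than 1 match in a window, and its 250 bases before the start site (chr10:52314031-52314280, plus strand) are shown with both matches in capitals, beside the same stretch of the expressed gene CTNNB1 (chr3:41199255-41199504, plus strand), which held none. No match says only that these letters are not in this window.
DKK1: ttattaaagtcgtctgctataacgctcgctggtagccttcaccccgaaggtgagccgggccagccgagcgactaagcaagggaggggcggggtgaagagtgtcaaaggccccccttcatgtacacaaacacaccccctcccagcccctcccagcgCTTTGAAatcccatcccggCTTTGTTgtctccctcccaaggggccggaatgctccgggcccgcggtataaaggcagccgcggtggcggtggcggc
CTNNB1: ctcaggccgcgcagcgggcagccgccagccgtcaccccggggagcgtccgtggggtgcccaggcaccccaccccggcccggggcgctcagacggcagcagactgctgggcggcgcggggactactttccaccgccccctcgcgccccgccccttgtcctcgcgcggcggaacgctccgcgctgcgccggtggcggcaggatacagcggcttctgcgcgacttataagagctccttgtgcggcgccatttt

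Among the cytoplasmic brakes, NKD1 and AXIN2 were higher in shtRF and APC, AXIN1 and NKD2 did not pass. NKD1 (chromosome 16, 50548330 to 50649249, plus strand) encodes an inhibitor that binds Dishevelled. It held 107.4, 101.1 and 118.0 CPM in control and 135.7, 150.9 and 154.9 CPM in shtRF. All shtRF libraries were higher than all control libraries, and the log2 fold change of 0.44 ± 0.06 (SE, adjusted p = 8.15e-06) had the lowest p of all members. RP11-401P9.6, a gene on the opposite strand that shares 0.4% of the exonic bases of NKD1, rose by a similar amount, 0.48 ± 0.07 on the log2 scale (SE, adjusted p = 2.25e-05).

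AXIN2 (chromosome 17, 65528563 to 65561647, minus strand), an axin whose gene is a widely used readout of beta-catenin activity, rose at a low level. It held 3.21, 3.51 and 3.96 CPM in control and 4.92, 4.56 and 4.72 CPM in shtRF. The groups did not overlap, with a log2 fold change of 0.41 ± 0.13 (SE) and an adjusted p of 0.0139 and a level of 0.693 RPKM in control and 0.890 RPKM in shtRF. The call was lost without control replicate 1 (adjusted p = 0.0664), without shtRF replicate 1 (adjusted p = 0.0536) and in limma-trend (adjusted p = 0.0567 and 0.0860 with pseudocounts of 1 and 0.1 RPKM). CTD-2535L24.2, on the same strand, shares 25.2% of the exonic bases of AXIN2 and did not pass (log2 fold change 0.39 ± 0.20, SE, adjusted p = 0.125).

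The scaffold genes of the degradation complex were steadier. AXIN1 held 53.0, 49.6 and 55.5 CPM in control and 48.7, 51.3 and 52.2 CPM in shtRF, with a log2 fold change of -0.06 ± 0.06 (SE) and an adjusted p of 0.497. APC held 59.8, 65.5 and 64.8 CPM in control and 57.2, 59.4 and 63.0 CPM in shtRF, with a log2 fold change of -0.08 ± 0.06 (SE) and an adjusted p of 0.280. For both genes the groups overlapped. NKD2, a relative of NKD1, held 2.24, 1.93 and 1.67 CPM in control and 0.896, 1.56 and 1.66 CPM in shtRF. Its groups just failed to overlap, and its log2 fold change of -0.51 ± 0.22 (SE), opposite in sign to that of NKD1, did not pass (adjusted p = 0.0779).

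CTNNB1 (chromosome 3, 41194837 to 41260096, plus strand), the gene of beta-catenin, was lower in shtRF. It held 62.6, 66.4 and 62.3 CPM in control and 53.9, 48.3 and 50.05 CPM in shtRF. The groups were well apart, with a log2 fold change of -0.33 ± 0.06 (SE) and an adjusted p of 8.52e-05, or 0.796 times the control level. Since beta-catenin is controlled largely by degradation of the protein, the transcript does not give its amount.

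Of the nuclear TCF and LEF factors, LEF1 was higher and the other three genes did not pass. TCF7L2, the most abundant of them, held 14.0, 14.5 and 12.98 CPM in control and 13.1, 12.5 and 11.2 CPM in shtRF. Its groups overlapped (log2 fold change -0.17 ± 0.08, SE, adjusted p = 0.122), and it made up 83.1% to 84.7% of the summed RPKM of these 4 genes in control and 74.8% to 84.8% in shtRF. LEF1 (chromosome 4, 108047545 to 108168956, minus strand) had 30, 32 and 30 counts in control and 44, 55 and 54 in shtRF. All shtRF libraries were higher, with a log2 fold change of 0.86 ± 0.32 (SE) and an adjusted p of 0.0382, at a mean of 0.593 CPM over the 6 libraries. The LEF1 call was lost in limma-trend with a pseudocount of 1 RPKM (adjusted p = 0.0607). It was also lost without any 1 of the control replicates 1, 2 and 3 (adjusted p = 0.0553, 0.0778 and 0.0950) and without shtRF replicate 2 or 3 (adjusted p = 0.0925 and 0.128). TCF7L1 and TCF7 gave adjusted p-values of 0.874 and 0.975, and TCF7 had at most 24 counts.

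Members known as feedback targets of beta-catenin were looked at together, a grouping made after their values were seen. These 9 genes were AXIN2, NKD1, RNF43, ZNRF3, LGR5, LEF1, TCF7, NOTUM and DKK1. Of the 7 tested, AXIN2, NKD1, RNF43 and LEF1 were higher and none was lower, beside 20.6% higher and 18.9% lower over all tested genes, which supports no pattern because the group was chosen on these values. ZNRF3, LGR5 and TCF7 had estimates of -0.28, -1.11 and -0.03 on the log2 scale that did not pass, and NOTUM and DKK1 were not tested.

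A list of 51 further pathway genes gave 39 tested genes, of which 5 were higher, 8 were lower and 26 did not pass. As shares of the tested genes these were 12.8% and 20.5%, beside the 20.6% and 18.9% of all tested genes, and the median log2 fold change was -0.04. Receptors and co-receptors outside the Frizzled and LRP families were lower in 4 of 5 tested cases, a small group whose share was not tested. Other groups of the list differed. Of 15 tested destruction complex kinases and scaffolds 1 was higher and 1 lower, and of 11 tested nuclear cofactors 3 were higher and 1 lower. ROR2, a receptor tyrosine kinase for WNT5A, went from 8.70 ± 1.27 to 6.63 ± 0.862 CPM (SD, n = 3, log2 fold change -0.39, adjusted p = 0.0104), a call lost in limma-trend and without control replicate 2 or shtRF replicate 2 (adjusted p up to 0.0901). RYK, another kinase-like Wnt receptor, went from 16.7 ± 1.67 to 12.8 ± 0.683 CPM (adjusted p = 8.74e-04). PTK7 went from 48.1 ± 1.09 to 41.1 ± 0.635 CPM (adjusted p = 0.00224), and KREMEN2, a partner of DKK proteins with 13.8% of its exonic bases shared with other genes, went from 10.6 ± 1.96 to 7.10 ± 0.919 CPM (adjusted p = 5.27e-04).

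Inside the cell, AMER1, which brings the degradation complex to the membrane, was lower, at 6.84 ± 0.408 CPM in shtRF against 11.5 ± 0.868 CPM in control (SD, n = 3, with a log2 fold change of -0.76 and adjusted p = 1.19e-06). The corepressor gene TLE1 rose from 93.1 ± 1.63 to 134.5 ± 11.4 CPM, by 0.53 in log2 units (adjusted p = 2.58e-07), while TLE5, a short member of the same family listed as AES, fell from 83.3 ± 4.17 to 62.3 ± 1.19 CPM (adjusted p = 2.22e-06). The genes of the 3 Dishevelled proteins and of both GSK3 kinases did not pass, with adjusted p-values from 0.121 for DVL2 to 0.979 for GSK3B. PYGO2, BTRC, BCL9L and CXXC5 were the other higher genes, with log2 fold changes of 0.26, 0.21, 0.20 and 0.19. The call of BTRC was lost in limma-trend and without control replicate 3 or shtRF replicate 1 (adjusted p up to 0.162), and that of CXXC5 in limma-trend, with upper quartile scaling, with no filter and without any 1 of the shtRF replicates (adjusted p up to 0.0922). BCL9L shares 38.8% of its exonic bases with CXCR5. CXXC4, an inhibitor that binds Dishevelled and a gene below the level set for naming, had a log2 fold change of -2.24 ± 0.26 (SE) and an adjusted p of 3.77e-07, from 1.74 to 0.366 CPM, and is named because it had the largest change of the list.

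Genes widely used as beta-catenin targets, other than the members, changed in both directions. Of 30 listed, 29 had a row and 19 were tested, of which 4 were higher (21.1%) and 7 were lower (36.8%), and the median log2 fold change was -0.27. Among all tested genes these values were 20.6%, 18.9% and -0.0025, so the higher share was near the background and the lower share was above it, a difference that was not tested. This list was chosen with earlier results of these data known. The lower genes included MYC, with the largest change of the list, which went from 21.0 ± 0.666 to 7.55 ± 0.325 CPM (SD, n = 3, log2 fold change -1.48, adjusted p = 2.51e-12). SOX4, a transcription factor gene, went from 52.7 ± 2.64 to 28.5 ± 1.40 CPM (adjusted p = 1.27e-10). BAMBI, a decoy receptor of the TGF-beta family, went from 12.7 ± 1.11 to 6.46 ± 1.11 CPM (adjusted p = 3.02e-07). CCND1, the gene of cyclin D1, went from 286.8 ± 9.31 to 237.3 ± 5.18 CPM (adjusted p = 2.08e-04), with 10.3% of its exonic bases shared with another gene. The higher genes were VCAN, JUN, EPHB3 and PPARD, with log2 fold changes of 1.22, 0.54, 0.26 and 0.25, and BIRC5, MSX2 and PLAUR were the remaining lower ones, with -0.38, -0.96 and -0.99. The call of PLAUR, at under 1 CPM in shtRF, was lost in limma-trend and without control replicate 1 or shtRF replicate 1 (adjusted p up to 0.150). Many of these genes answer to other pathways too, so their direction is not a measure of Wnt signalling.

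**Figure D5:**
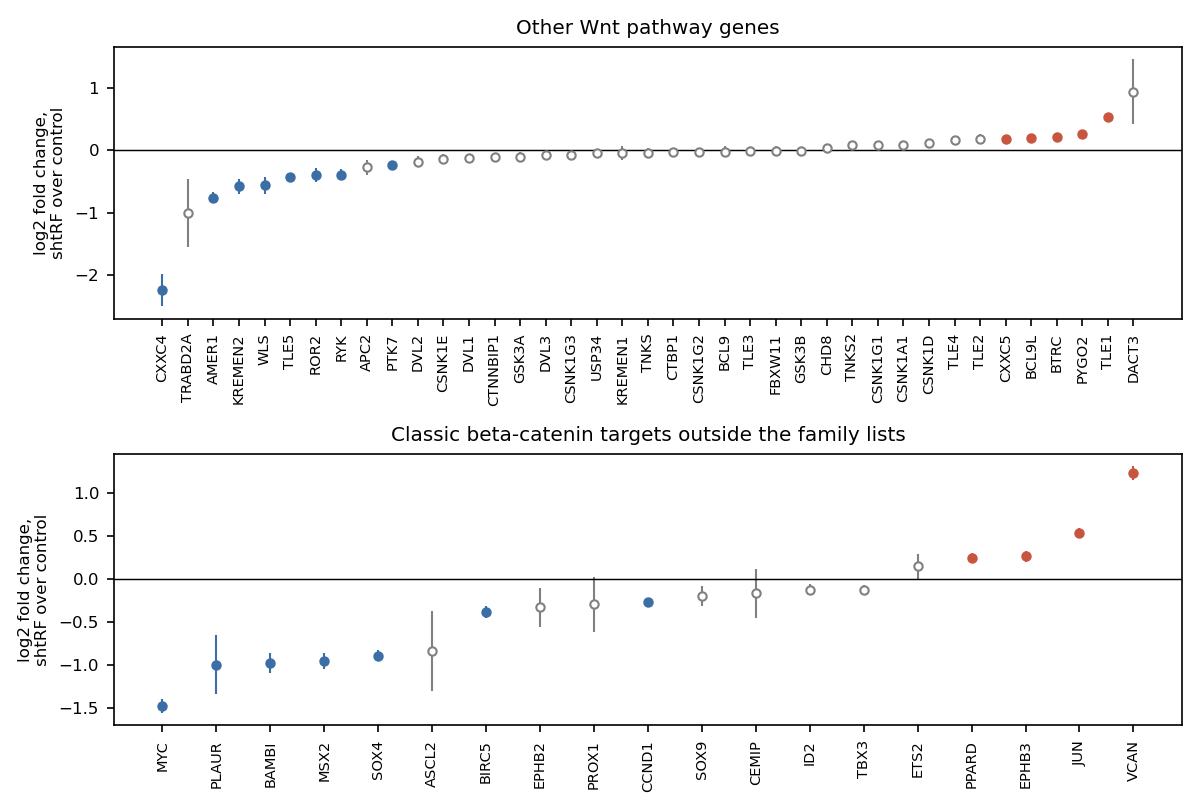
Log2 fold change of shtRF over control (y axis) with bars of 1 standard error for the 39 tested further pathway genes (top) and the 19 tested target genes (bottom), ordered by size. Filled red points were higher and filled blue points lower at an adjusted p under 0.05, and open grey points did not pass. The largest changes were those of CXXC4 in the first list and of MYC and VCAN in the second.

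Library totals ran from 63541413 to 78917459 counts, and correlations of log2 values were higher within groups (0.997 to 0.998) than between them (0.988 to 0.989). All 12 markers of the line on a list of epithelial, androgen receptor and HER2 genes were expressed. Of 22 listed markers of other cell types 2 were expressed, COL1A1 and LHX1. Summed RPKM ran from 3.07 to 3.70 in control and from 2.05 to 2.19 in shtRF for fibroblast markers, nearly all of it COL1A1, which fell by 0.62 on the log2 scale, while the fibroblast marker DCN had at most 2 counts. For endothelial markers the sums ran from 0.0235 to 0.0334 and from 0.0283 to 0.0459, and for leukocyte markers from 0.0525 to 0.0989 and from 0.0250 to 0.0718. Basal markers gave 0.572 to 0.687 and 0.409 to 0.523, most of it MYH11, which was lower (log2 fold change -0.36, adjusted p = 0.0071). That call was lost in limma-trend with a pseudocount of 0.1 RPKM (adjusted p = 0.0708). KRT5, KRT14 and ACTA2 had at most 24 counts in any library. Markers of the kidney line used to package viruses gave 3.45 to 3.96 and 3.76 to 3.86, nearly all of it LHX1, which did not pass.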

How the data were processed

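Stranded mRNA libraries from MDA-MB-453 cells were sequenced as paired reads, 3 per group, and grouped by sample title. The authors deposited raw counts per gene with exon coordinates and lengths. The submitters' processing notes name Trimmomatic 0.36, featureCounts, Subread 1.5.1, edgeR 3.12.1 and GRCh38. The aligner and the strand setting are not given in the sources used here. Between 74.2% and 77.1% of counts of 1 to 4 were even, beside 49.7% to 50.7% of counts of 1000 or more, so both mates of a pair may have been counted and low counts may hold fewer fragments. RPKM values deposited by the authors (22 members) equalled the count per kilobase scaled to the library total within a relative tolerance of 0.0001 for 100% of 4991 genes, and RPKM was recomputed from counts for all genes.

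Genes were filtered with filterByExpr (minimum count 10), scaled by TMM (factors 0.961 to 1.03) and tested in edgeR 4.0.16 (R 4.3.3) with the quasi-likelihood test, group as the only term, and Benjamini-Hochberg adjustment over 19628 genes. The test was tried on simulated counts first. The SE came from the estimate and its F statistic. Alternatives used DESeq2 1.42.0 (independent filtering off) and limma 3.58.1. Exon overlap was computed with bedtools. All 55 members lay on their GENCODE 29 locus. Promoter sequences are from RefSeq, GRCh38.p14.

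Members, gene lists and tests were chosen with earlier results of these data known. Values in every library are given for expressed members and for members with an adjusted p under 0.05 and a mean of at least 0.5 CPM. WNT3 fell below that level, and its counts and those of other low or uncalled members are given as chosen after their values were seen. Of the other lists, genes with an adjusted p under 0.05 and a mean of at least 2 CPM were eligible, the 8 largest changes per list, with values for a subset. The remaining called genes of these lists are named outside that rule.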

Additional observations from a re-analysis of the deposited data

How the results depend on the processing

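Across 16 alternatives, 507 of 528 member log2 fold changes stayed on the same side of the test's threshold, 19 lost the call and 2 gained it. The 13 called members kept their direction in each of these, and 18 values of 8 members without a call (WNT4, WNT5A, WNT8B, PORCN, FZD3, FZD5, TCF7 and TCF7L1) changed sign, at adjusted p-values of 0.693 or more. The 7 members that lost or gained a call were WNT3, AXIN2, WNT7B, LEF1, FZD6, FZD7 and NKD2, and NKD2 passed with no filter beyond 1 count (adjusted p = 0.0495). With limma-trend on log2(RPKM + 1), 5 members were higher and 3 other pathway genes were higher, and 3 were with log2(RPKM + 0.1). No member (0) was lower by over 2-fold with at least 10 counts in every library, with at least 1 CPM in 3 libraries, or in either limma-trend fit, as WNT3 was left out or its change compressed. The expressed members numbered 21 at 0.5 RPKM and 26 at a mean of 1 CPM in a group. Leaving out 1 replicate at a time gave 5 to 7 higher and 4 to 6 lower members, 0 to 1 higher and 0 to 1 lower by over 2-fold, 13 to 14 expressed, 3 to 6 higher and 7 to 9 lower other pathway genes, and 4 to 5 higher and 6 to 9 lower target genes. Fewest members (5) were higher without control replicate 1, WNT9A passed 2-fold without control replicate 1 or 2 or shtRF replicate 3, and fewest pathway genes (3) were higher without shtRF replicate 1.

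Same-numbered libraries deviated from their group means with correlations of 0.0592, 0.0178 and 0.0174, so the replicate numbers were not taken as pairs. With the replicate block 7 members were higher and 5 lower, 6 and 8 of the other pathway genes, and 4 and 7 of the targets, and LEF1 lost its call (adjusted p = 0.0548). Control replicate 3 correlated best with shtRF replicate 2 (0.0562). Over all tested genes, 52.2% of calls were higher, 45.7% with upper quartile scaling and 43.3% and 43.1% in limma-trend. Depth limits the 21 untested members and the members with the fewest counts among those called, WNT3 and LEF1.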
